A study of Bos taurus with 16 samples.

Results

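Blastocysts recovered at day 7.5 from cows fed rolled sunflower seed (SUN) were set against blastocysts from cows fed rolled canola seed (CAN, the control diet). The comparison took every array whose labels paired SUN with CAN, which were 8 of the 16 arrays of the series. They held 4 biological replicates, and each replicate was hybridised on 1 array and once more with the dyes Cy3 and Cy5 exchanged. Both groups came from non-lactating Holstein cows, 7 on SUN and 8 on CAN, that had eaten their oilseed for at least 35 d, were superstimulated with follicle-stimulating hormone, and were inseminated with semen of one sire. Embryos were flushed from the uterus, similar stages from a cow were pooled, and the antisense RNA amplified from them was labelled. The labels do not tie replicates to cows, and p-values therefore cover only the scatter of these embryo pools, which may be partly technical. The other 8 arrays paired a flax diet (FLX, 8 cows) with CAN and entered the fit as a further group.

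Sunflower oil is rich in linoleic acid, an n-6 polyunsaturated fatty acid and the parent of arachidonic acid and the prostaglandins, whereas canola oil is rich in the monounsaturated oleic acid. Polyunsaturated fatty acids are known, mostly from rodent and human cells, to lower the processing of SREBP, the transcription factor that turns on the genes of cholesterol and fatty acid synthesis. At this age the bovine blastocyst has an outer trophectoderm, which pumps fluid into the blastocoel and later forms the placenta, and an inner cell mass that gives rise to the epiblast and hypoblast.

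The measurement was a log2 ratio for each probe, turned so that a positive value means more signal in SUN than in CAN. All values below are such ratios or differences of them, and 1 unit is a 2-fold difference. The direction is likely but not certain: it was taken as Cy5 over Cy3, because the labels define CAN as the control and list it in Cy3 where a replicate's arrays begin. With the opposite ratio all signs below would be turned. The base 2 was assumed, and neither the scaling nor the centring applied before deposit is known. A ratio gives no level, so whether markers of the blastocyst were present at all could not be checked, and weak spots could not be told from bright ones. Of 43794 probes 21790 carried a gene symbol, for 15216 genes, and a gene's value is the mean over its probes.

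Replicate 3 stood apart from the other replicates over the whole array. Over all genes, replicates 1, 2 and 4 correlated with one another at Pearson's r of 0.198 to 0.324, as a description across genes that are not independent. Replicate 3 correlated with them at −0.248, −0.290 and −0.280. It was not the noisier measurement of the group, since its array and its dye exchange, turned the same way, correlated at 0.597, against 0.165, 0.464 and 0.298 for replicates 1, 2 and 4. As deposited, each array of replicate 3 correlated at 0.227 to 0.324 with the arrays of replicates 1, 2 and 4 that had the opposite dye orientation. With those of the same orientation replicate 3 correlated at −0.131 to −0.0386. Its FLX counterpart of the same number, which carries the same CAN label, deviated from its group mean together with it at r = 0.581, as other same-numbered pairs did at 0.436 to 0.588. No pair of SUN replicates reached −0.3. The labels were kept, and an exchange of dyes or samples was not tested. Replicate 3 had the sign opposite to the other 3 replicates, which shared a sign, in 3071 genes (20.2%). The same count was 1786 genes (11.7%) for replicate 1, 1332 genes (8.75%) for replicate 2 and 1650 genes (10.8%) for replicate 4. Results are therefore given with all 4 replicates and again without replicate 3, and why replicate 3 differs was not tested. Replicates 1 and 2 shared a slide, as did replicates 3 and 4.

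**Figure D1:**
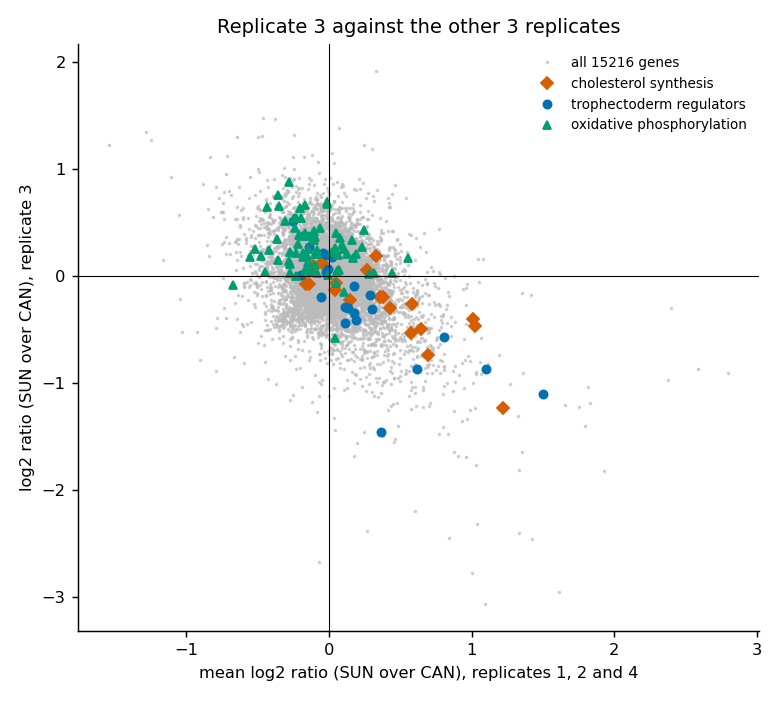
Each grey point is a gene, placed by its mean log2 ratio (SUN over CAN) in replicates 1, 2 and 4 on the horizontal axis and its log2 ratio in replicate 3 on the vertical axis, with members of 3 families coloured. Most cholesterol synthesis genes lie to the right of 0 and below it, and many oxidative phosphorylation genes lie to the left and above it.

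No gene passed a false discovery rate of 0.05 (limma with Benjamini-Hochberg adjustment over all genes), with or without replicate 3. At an unadjusted p under 0.05 there were 941 genes with 4 replicates, 6.18% of all genes tested (and 6.46% of all probes), of which 508 (3.34%) had a positive and 433 (2.85%) a negative mean. Without replicate 3 there were 1707 such genes (11.2%), 990 positive (6.51%) and 717 negative (4.71%), and without replicate 2 there were 588. A single sign in 4 of 4 replicates was seen in 2039 genes (13.4%), 997 positive (6.55%) and 1042 negative (6.85%), and a single sign in all 8 arrays in 281 genes (1.85%). Because whole pooled embryos were measured, fewer cells of a type and less RNA per cell cannot be told apart. Nothing below is a called change, and the values are given for what they are.

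Among genes with 1 sign in all 4 replicates, in both dye orientations and in every probe, the highest mean belonged to PAG2, a pregnancy-associated glycoprotein secreted by the trophoblast. Its log2 ratio was 0.81 in replicate 1, 1.68 in replicate 2, 0.16 in replicate 3 and 0.76 in replicate 4, a mean of 0.85 ± 0.63 (SD, n = 4). Replicate 2 lay highest and replicate 3 close to 0. STMN1, which encodes the microtubule-destabilising protein stathmin, had 0.40, 1.66, 0.44 and 0.25 in replicates 1 to 4, a mean of 0.69 ± 0.65 (SD, n = 4). Most of that mean came from replicate 2, with the other 3 replicates between 0.25 and 0.44. KLF10, a zinc finger factor induced by TGF-beta, was the most even of these genes. Its ratio was 0.69 in replicate 1, 0.66 in replicate 2, 0.38 in replicate 3 and 0.38 in replicate 4, a mean of 0.53 ± 0.17 (SD, n = 4), with an adjusted p of 0.799. CPEB2, which binds the cytoplasmic polyadenylation element of mRNAs, had 0.29, 0.91, 0.73 and 0.42 in replicates 1 to 4, so replicate 3 was not the low one there.

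The other high genes included several that act on RNA or chromatin. SNRNP48, a component of the minor spliceosome, averaged 0.59 ± 0.43 (SD, n = 4) and HNRNPAB, an RNA-binding hnRNP protein, averaged 0.55 ± 0.38 (SD, n = 4). SUPT20H, a subunit of the SAGA histone acetyltransferase complex, averaged 0.56 ± 0.47 (SD, n = 4), and SLTM, a nuclear RNA-binding protein, 0.49 ± 0.24 (SD, n = 4). HSP90AA1, the inducible cytosolic HSP90 chaperone, had 0.27, 1.26, 0.40 and 0.15 in replicates 1 to 4. As with STMN1, replicate 2 was far above the rest. The endocytic sorting receptor SORL1 averaged 0.55 ± 0.39 (SD, n = 4) and the serpin SERPINI1 0.49 ± 0.40 (SD, n = 4). TNP1, a transition protein of spermatids, had 1.28, 0.48, 0.044 and 0.29, with replicate 1 highest and replicate 3 near 0. The adjusted p of each of these genes was 0.799.

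On the negative side the lowest mean was that of CDH26, an atypical cadherin, at −0.90 ± 0.95 (SD, n = 4). Replicate 2 had −2.32, whereas replicates 1, 3 and 4 had −0.34, −0.52 and −0.43. RPS14, a protein of the small ribosomal subunit, was lowest in replicate 1, with ratios of −1.73, −0.55, −0.78 and −0.43 in replicates 1 to 4. LIG1, the ligase that joins Okazaki fragments, had −1.33, −0.44, −0.89 and −0.59, and all 4 replicates lay below −0.4. ECHS1, the enoyl-CoA hydratase of mitochondrial fatty acid oxidation, had −1.12, −0.85, −0.48 and −0.39, a mean of −0.71 ± 0.34 (SD, n = 4). TBRG4, a mitochondrial RNA-binding protein of the FASTK family, had the smallest p of these 24 genes, with −0.83 in replicate 1, −0.98 in replicate 2, −0.39 in replicate 3 and −0.54 in replicate 4. All 4 values lay at or below −0.39, and its adjusted p was 0.446 with 4 replicates and 0.0854 without replicate 3.

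MRPS24, of the small mitochondrial ribosomal subunit, averaged −0.82 ± 0.53 (SD, n = 4) and NAT9, a putative N-acetyltransferase, −0.84 ± 0.63 (SD, n = 4). In both genes replicates 1 and 2 were below −1 and replicates 3 and 4 were nearer 0. TNFRSF12A, the receptor of the cytokine TWEAK, averaged −0.69 ± 0.38 (SD, n = 4), and WRAP53, which brings telomerase RNA to Cajal bodies, −0.63 ± 0.34 (SD, n = 4). HNRNPUL2, an hnRNP U-like protein, averaged −0.64 ± 0.38 (SD, n = 4), the uncharacterised locus LOC100336907 −0.65 ± 0.46 (SD, n = 4), and GAB2, an adaptor of receptor tyrosine kinases, −0.58 ± 0.57 (SD, n = 4). GAB2 rested mostly on replicate 2, at −1.42, with the other replicates between −0.40 and −0.18.

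**Figure D2:**
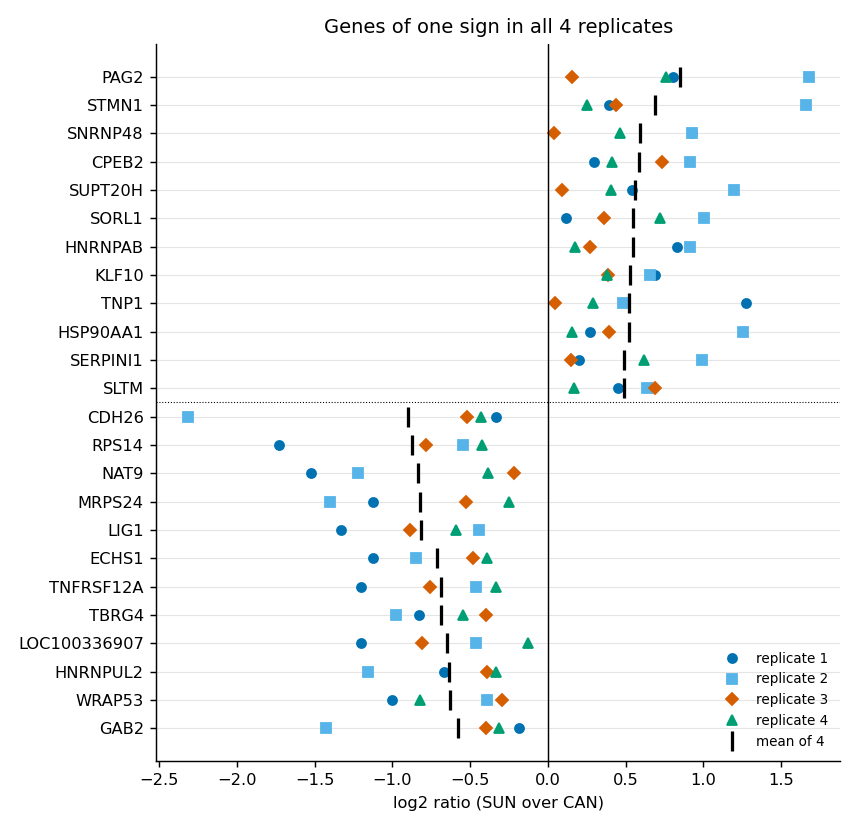
The log2 ratio (SUN over CAN, horizontal axis) of each replicate is a coloured symbol for the 12 highest and 12 lowest genes of one sign in all 4 replicates, and the black bar is the mean of 4. Replicate 2 is the farthest point from 0 for STMN1, HSP90AA1, CDH26 and GAB2, and replicate 1 for RPS14, LIG1 and TNP1.

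Cholesterol synthesis was the family with the highest median. Its mevalonate steps build isoprene units from acetyl-CoA and its later steps turn squalene into cholesterol. Of 21 listed genes 19 had a probe, and 15 of them had a positive mean, against 51% of all genes. The median member stood at 0.23, against 0.0025 over all genes. By replicate the median was 0.43 in replicate 1, 0.48 in replicate 2, −0.20 in replicate 3 and 0.23 in replicate 4. Replicates 1, 2 and 4 were thus positive and replicate 3 negative. In 9 of the 19 members replicate 3 was opposite to 3 others of one sign, beside 20.2% of all genes. With all replicates 3 members had a positive mean at an unadjusted p under 0.05 and 1 a negative one, beside 3.34% and 2.85% of all genes. Without replicate 3 the median was 0.36 and 15 of 19 members had a positive mean, beside 49.8% of all genes. At that p 11 of 19 were positive, beside 6.51% of all genes. In the arrays with CAN in Cy3 this median without replicate 3 was 0.35, and in those with CAN in Cy5 0.40, so both dye orientations gave a like value. Replicate 3 was set aside for how it correlated with the others over these same genes, so counts without it are a description.

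All 19 measured enzymes are given, the mevalonate steps first and the squalene and sterol steps after, but not in strict pathway order within each. HMGCS1, the cytosolic HMG-CoA synthase, had 0.94, 0.73, −0.49 and 0.28 in replicates 1 to 4. IDI1, the isomerase of isopentenyl diphosphate, had 0.79, 1.59, −0.40 and 0.65, and FDPS, which makes farnesyl diphosphate, had 0.93, 0.58, −0.26 and 0.23. All 3 were positive in replicates 1, 2 and 4 and negative in replicate 3. The neighbouring kinases and decarboxylase did not share this. MVK had 0.13, 0.18, −0.13 and −0.18, PMVK 0.099, −0.019, −0.061 and 0.071 and MVD −0.17, 0.089, 0.10 and −0.26, all within 0.3 of 0. GGPS1, whose product leaves the sterol branch for protein prenylation, was negative in every replicate, at −0.14 ± 0.090 (SD, n = 4), although its mean was 0.00097 on the arrays with CAN in Cy5. ACAT2, which condenses acetyl-CoA ahead of HMGCS1, averaged 0.22 ± 0.19 (SD, n = 4).

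Past the branch point, the value of SQLE, the squalene epoxidase, was 1.45 in replicate 1, 1.09 in replicate 2, −0.46 in replicate 3 and 0.53 in replicate 4. CYP51A1, the lanosterol demethylase, had the widest range over replicates of the 19. It had 1.17 in replicate 1, 1.46 in replicate 2, −1.23 in replicate 3 and 1.03 in replicate 4, a mean of 0.61 ± 1.24 (SD, n = 4) with all replicates and 1.22 ± 0.22 (SD, n = 3) without replicate 3. Its adjusted p was 0.815 with 4 replicates and 0.0854 with 3. The 3 probes of this gene were all positive. MSMO1, the sterol methyl oxidase, had 0.90, 0.75, −0.74 and 0.42, and HSD17B7, a 3-ketosteroid reductase of the same step series, 0.71, 0.77, −0.53 and 0.26. EBP, the sterol isomerase, had 0.47, 0.45, −0.30 and 0.36, and without replicate 3 its values spanned only 0.36 to 0.47. SC5D, the sterol desaturase, had 0.29, 0.60, −0.20 and 0.25, and FDFT1, the squalene synthase, 0.66, 0.41, −0.20 and −0.0011. NSDHL, which removes the oxidised methyl groups, was positive in all 4 replicates, at 0.30 ± 0.22 (SD, n = 4). LSS averaged −0.12, TM7SF2 −0.0040 and DHCR7 0.057, so the steps did not all follow one another.

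**Figure D3:**
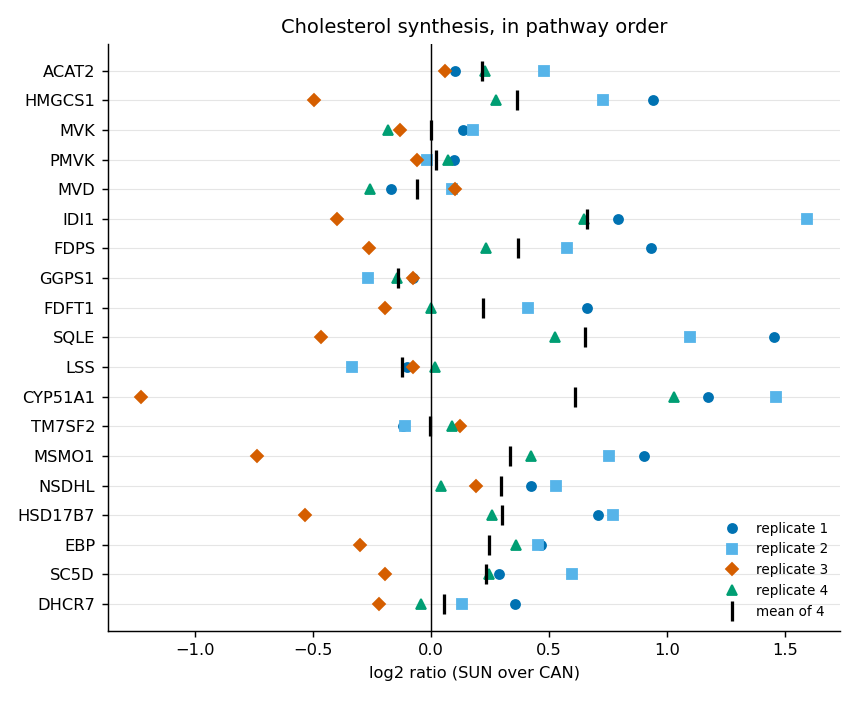
The log2 ratio (SUN over CAN, horizontal axis) of each replicate is shown for the 19 measured cholesterol synthesis genes in pathway order, with the mean of 4 as a black bar. In CYP51A1, SQLE, IDI1, MSMO1 and HSD17B7 replicates 1, 2 and 4 lie to the right of 0 and replicate 3 to the left.

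The genes that sense and move sterols did not share the pattern of the enzymes. Of 21 measured members (of 24 listed) 11 were positive, and the median was 0.0049 with all replicates and −0.028 without replicate 3. SCAP, the escort of SREBP, had −0.15, −0.49, −0.14 and −0.28 in replicates 1 to 4, and MBTPS2, a protease that cuts SREBP free, had 0.12, 0.75, 0.30 and 0.17. The 2 genes were each of one sign throughout, but of opposite sign to each other. NR1H2, the liver X receptor beta, averaged −0.19 ± 0.27 (SD, n = 4). Among the 27 measured genes of fatty acid synthesis, desaturation and elongation, 20 were positive, with a median of 0.056. Of them 0 reached an unadjusted p under 0.05, beside 6.18% of all genes. Without replicate 3 the median was 0.087 and 6 members were positive at that p, beside 6.51% of all genes, and that median was 0.13 on the arrays with CAN in Cy3 and 0.039 on those with CAN in Cy5. The desaturases carried the largest values: their median in replicates 1 to 4 was 0.20, 1.02, −0.64 and 0.30.

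Within this family SCD5, a stearoyl-CoA desaturase that makes oleic acid, had 0.65, 1.18, −0.64 and 0.51 in replicates 1 to 4. SCD, the other stearoyl-CoA desaturase, had 1.07, 1.02, −1.41 and 0.30, and FADS2, the first desaturase on the way from linoleic to arachidonic acid, 0.20, 1.19, −0.76 and 0.60, and both were named after their values were seen. In each of these genes replicate 3 alone was negative. FADS1, the next desaturase on that route, differed, with 0.018, −0.23, −0.27 and −0.063. The elongase ELOVL1 had 0.68, 1.28, −0.37 and 0.39, again with replicate 3 alone below 0, whereas ELOVL4, which makes very long chains, was positive in every replicate at 0.22 ± 0.31 (SD, n = 4), with 0.68 in replicate 2. FASN, the fatty acid synthase, averaged 0.060 ± 0.47 (SD, n = 4) and ACACB, an acetyl-CoA carboxylase, 0.066 ± 0.047 (SD, n = 4). ACACB was −0.021 on the arrays with CAN in Cy3 and 0.15 on those with CAN in Cy5.

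**Figure D4:**
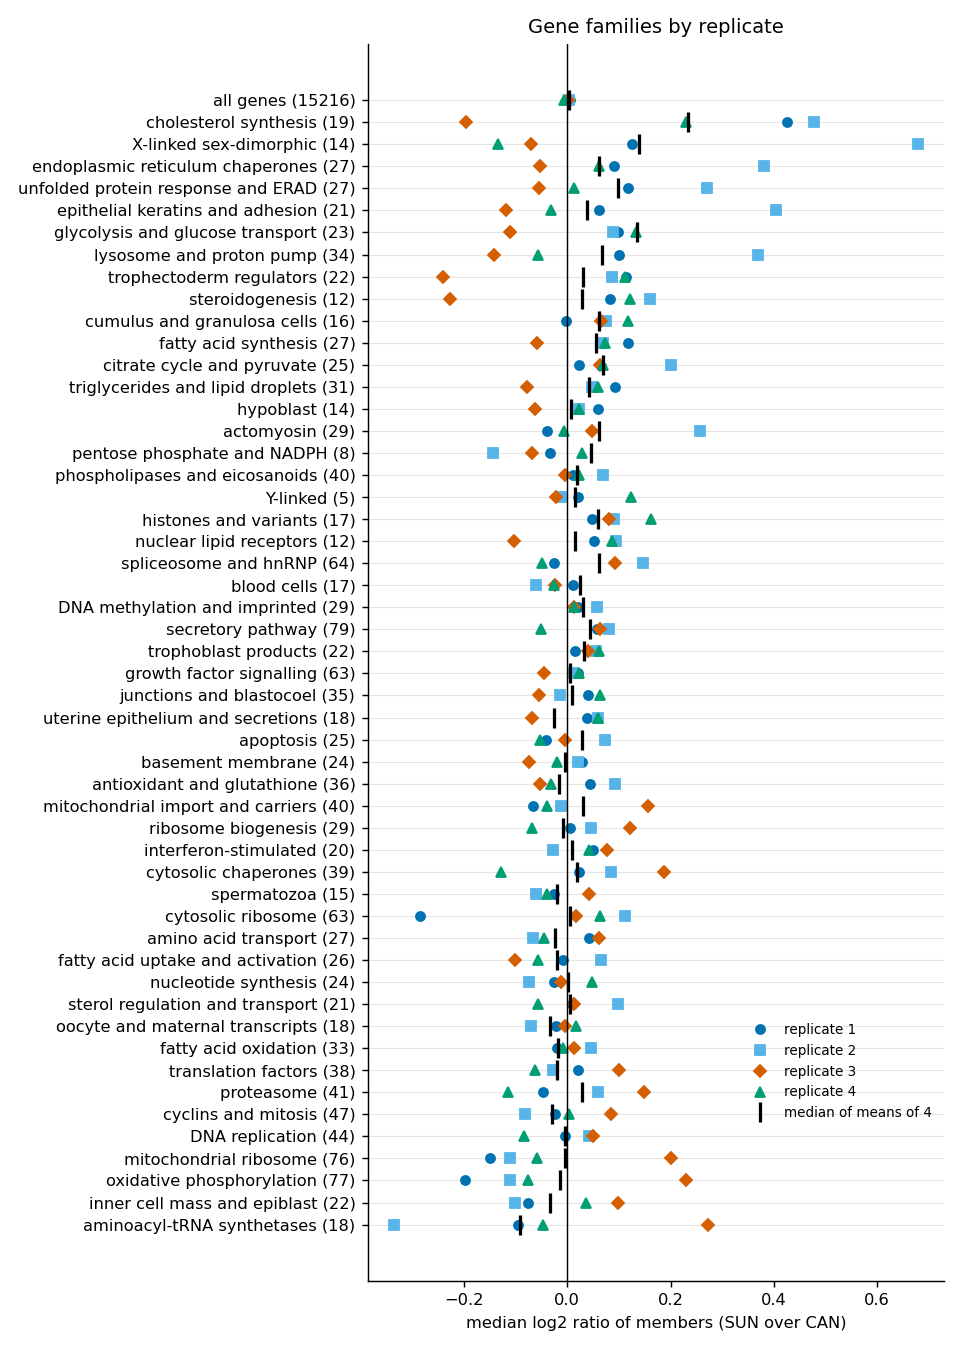
The median log2 ratio (SUN over CAN, horizontal axis) of the members of each family is shown for each replicate, with the number of measured members in brackets and the families ordered by their median without replicate 3; the black bar is the median of the 4-replicate means. The symbols for all 15216 genes lie next to 0, and replicate 3 lies on the far side of 0 from the others in cholesterol synthesis, trophectoderm regulators, oxidative phosphorylation and the mitochondrial ribosome.

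Families that burn, take up and store fatty acids had medians near that of all genes. In fatty acid oxidation 12 of 33 measured members were positive and the median was −0.018. ECHS1 stood out on the negative side, as above, while other members leaned the other way. HSD17B4, of peroxisomal oxidation, averaged 0.42 ± 0.52 (SD, n = 4), OXCT1, which activates ketone bodies, 0.21 ± 0.22 (SD, n = 4), and ACADS, the short-chain acyl-CoA dehydrogenase, 0.17 ± 0.14 (SD, n = 4). In uptake and activation 9 of 26 were positive, with a median of −0.019. ACSL6, a long-chain acyl-CoA synthetase, had 0.90, 1.12, −0.56 and 0.54 in replicates 1 to 4. Its sister ACSL1 was negative in all 4, at −0.26 ± 0.15 (SD, n = 4), and the fatty acid transporter SLC27A4 averaged −0.20 ± 0.20 (SD, n = 4), with 0.0029 in replicate 1.

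Triglyceride and lipid droplet genes had a median of 0.042, with 20 of 31 positive. DGAT1, which makes the last bond of a triglyceride, was positive in each replicate, at 0.18 ± 0.10 (SD, n = 4), and GPAM, which makes the first, was negative in each, at −0.14 ± 0.080 (SD, n = 4). GPAT3, another acyltransferase of that first step, had 0.41, 1.05, −0.23 and 0.41 in replicates 1 to 4. The eicosanoid genes, which start from arachidonic acid freed by phospholipase A2, had a median of 0.018, with 23 of 40 positive. At an unadjusted p under 0.05, 4 were positive and 1 negative, beside 3.34% and 2.85% of all genes. PLA2G5, a secreted phospholipase A2, was even between replicates, with 0.39, 0.19, 0.27 and 0.37. The calcium-independent PLA2G6 ran the other way, with −0.11, −0.70, −0.30 and −0.38. PTGS1, the constitutive cyclooxygenase, averaged 0.13 ± 0.061 (SD, n = 4), and PTGDR, a prostaglandin D2 receptor, 0.15 ± 0.055 (SD, n = 4). PTGS2, the inducible cyclooxygenase, was named after its values were seen: it had 0.12, 2.35, −0.997 and 0.56, with a mean of 0.51 ± 1.39 (SD, n = 4). Without replicate 3, 10 of the 40 members were positive at an unadjusted p under 0.05, beside 6.51% of all genes, and the median was −0.0028 on the arrays with CAN in Cy3 and 0.090 on those with CAN in Cy5. The nuclear receptors that bind fatty acids had 0 of 12 members at that p with 4 replicates, beside 6.18% of all genes, and the median was 0.015.

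Transcription factors of the trophectoderm had a negative median in replicate 3 alone. Of 22 measured members 15 had a positive mean, and the median was 0.11, 0.086, −0.24 and 0.11 in replicates 1 to 4. In 13 members replicate 3 had the sign opposite to 3 others that agreed, beside 20.2% of all genes. With all replicates 0 members reached an unadjusted p under 0.05, beside 6.18% of all genes. Without replicate 3, 4 were positive and 1 negative at that p, beside 6.51% and 4.71% of all genes. ID2, an inhibitor of basic helix-loop-helix factors, had 0.89 in replicate 1, 1.98 in replicate 2, −1.10 in replicate 3 and 1.63 in replicate 4. DLX3, a homeobox factor of the placenta, had 1.19, 1.47, −0.87 and 0.64, and DLX4 0.24, 0.27, −0.17 and 0.36. TFAP2A, named after its values were seen, had 0.32, 1.45, −0.57 and 0.65. CDX2, the factor that sets up this lineage, averaged 0.037 ± 0.34 (SD, n = 4), and GATA3 0.013 ± 0.20 (SD, n = 4). Neither value was stable: without replicate 3 they were 0.19 and 0.11, and with CAN in Cy5 −0.14 and −0.23. HAND1, a factor of later trophoblast, averaged −0.14 ± 0.17 (SD, n = 4), and was 0.012 on the arrays with CAN in Cy3.

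Secreted trophoblast products were split by gene. Of 33 listed members 22 had a probe, and the median was 0.032. At an unadjusted p under 0.05, 2 were positive, PAG2 and PAG12, beside 3.34% of all genes. PAG12 had 0.86 in replicate 1, 1.26 in replicate 2, −0.071 in replicate 3 and 0.77 in replicate 4. PAG11 averaged 0.15 ± 0.23 (SD, n = 4), and PAG1, named after its values were seen, −0.067 ± 0.23 (SD, n = 4). TKDP1, a trophoblast Kunitz-domain protein of ruminants, swung over the widest range of the family, with 1.81 in replicate 1, 2.59 in replicate 2, −2.95 in replicate 3 and 0.45 in replicate 4. Its mean was 0.47 ± 2.45 (SD, n = 4), far smaller than its spread. Among steroid hormone genes 9 of 12 were positive, and the median was 0.082, 0.16, −0.23 and 0.12 in replicates 1 to 4. HSD3B1, which converts pregnenolone to progesterone, had 1.70 in replicate 1, 2.61 in replicate 2, −1.04 in replicate 3 and 1.15 in replicate 4. STAR, which brings cholesterol into mitochondria, had 0.27, 1.16, −0.60 and 0.12, and FDX1, the ferredoxin that feeds electrons to mitochondrial P450 enzymes, averaged 0.16 ± 0.35 (SD, n = 4). Keratins and desmosomal genes had medians of 0.062, 0.40, −0.12 and −0.031, with 16 of 21 positive. KRT19, a keratin of simple epithelia, had −0.73, 3.95, −2.46 and 1.05, while KRT8 averaged 0.25 ± 0.35 (SD, n = 4) and the desmosomal periplakin PPL 0.40 ± 0.62 (SD, n = 4). CDH1, the adhesion protein E-cadherin, was negative in every replicate, at −0.20 ± 0.18 (SD, n = 4).

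Inner cell mass and epiblast genes leaned the other way in replicates 1 and 2. Of 22 measured members 9 had a positive mean, and the family median was −0.076, −0.10, 0.097 and 0.037 in replicates 1 to 4. SPIC, an ETS factor, had −0.54 in replicate 1, −0.71 in replicate 2, 0.48 in replicate 3 and −0.62 in replicate 4, and its mean without replicate 3 was −0.62 ± 0.087 (SD, n = 3). That fit gave it an adjusted p of 0.0854, against 0.805 with 4 replicates. IL6R, a receptor of interleukin 6 signals, averaged −0.26 ± 0.27 (SD, n = 4), NODAL, a TGF-beta family ligand, −0.14 ± 0.070 (SD, n = 4) and SOX2, a pluripotency factor, −0.13 ± 0.22 (SD, n = 4). NODAL was 0.0077 and SOX2 0.012 on the arrays with CAN in Cy5. NANOG, the epiblast factor, was named after its values were seen: it had 0.35 in replicate 1, 5.34 in replicate 2, −0.30 in replicate 3 and 1.51 in replicate 4, a mean of 1.72 ± 2.52 (SD, n = 4). Replicate 2 alone held most of that mean, and its adjusted p was 0.814. POU5F1, also named after its values were seen, averaged 0.019 ± 0.32 (SD, n = 4).

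Hypoblast genes had a median of 0.0080, with 7 of 14 positive. DAB2, an endocytic adaptor, had 0.26, 0.56, −0.34 and 0.34 in replicates 1 to 4, and HNF4A, a nuclear receptor of endoderm, 0.075, 1.17, 0.0082 and 0.33. Basement membrane genes had a median of −0.0047, and ITGA5, the fibronectin receptor subunit, averaged −0.54 ± 0.33 (SD, n = 4). Of the 35 measured genes of junctions and fluid transport 19 were positive. At an unadjusted p under 0.05, 3 were positive and 2 negative, beside 3.34% and 2.85% of all genes. OCLN, the tight junction protein occludin, was positive in every replicate, at 0.42 ± 0.24 (SD, n = 4), and CLDN6, a claudin, likewise, at 0.19 ± 0.063 (SD, n = 4). CLDN6, however, was 0.50 on the arrays with CAN in Cy3 and −0.12 on those with CAN in Cy5. CLDN3, another claudin, averaged −0.30 ± 0.22 (SD, n = 4), and ATP1B2, a subunit of the sodium pump, −0.31 ± 0.25 (SD, n = 4). In the actomyosin family 3 of 29 members were positive at that p and 0 negative, beside 3.34% and 2.85% of all genes. They were PFN1, which binds actin monomers, at 0.39 ± 0.42 (SD, n = 4), ACTG1, a cytoplasmic actin, at 0.21 ± 0.18 (SD, n = 4), and CFL1, which severs filaments, at 0.29 ± 0.084 (SD, n = 4). CFL1 was 0.62 with CAN in Cy3 and −0.033 with CAN in Cy5.

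A further ranking left replicate 3 out of the mean, the p and the replicate signs. It asked for an unadjusted p under 0.05 and 1 sign in the other 3 replicates, at both dye orientations and in every probe. The signs by dye orientation and by probe were still taken over all 4 replicates. The highest mean was that of LOC783399, an uncharacterised locus, with 1.73 in replicate 1, 4.43 in replicate 2, −0.90 in replicate 3 and 2.24 in replicate 4. A further locus, LOC513329, had 1.62, 3.38, −0.97 and 2.12, and PAGE4, a member of a cancer and testis antigen family, had 1.79, 2.50, −1.19 and 1.19. GIPC2, a PDZ-domain adaptor, had 0.98, 3.56, −1.82 and 1.25, and SCIN, an actin-severing protein, 0.16, 3.45, −1.40 and 1.77. With HSD3B1, above, these made up the 6 highest means under that rule, which NANOG, for one, missed by its p, and in all 6 genes replicate 3 was at or below −0.90. On the negative side TRIM63, a muscle ubiquitin ligase, had −1.24, −2.48, 1.22 and −0.89, ETNPPL, which breaks down phosphoethanolamine, −1.14, −2.67, 1.34 and −0.028, and SLC1A4, a neutral amino acid transporter, −1.07, −2.43, 1.27 and −0.24. GLDC, of the glycine cleavage system, had −0.49, −1.89, 0.92 and −0.93, and RPS19BP1, a nucleolar partner of a ribosomal protein, −1.504, −1.24, 0.15 and −0.75. Replicate 3 was above 0 in each of these 5, and NAT9 was the sixth. RPS19BP1 had an adjusted p of 0.0854 without replicate 3 and 0.799 with it.

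Genes were also ranked by how far replicate 3 lay from the mean of the other 3, as a description. It lay farthest below in TKDP1, then in ENPP3, an ectoenzyme of nucleotides, where the replicates had 0.61, 2.35, −3.07 and 0.33. KRT19, above, and PLAU, the urokinase-type plasminogen activator with 1.64, 1.38, −2.78 and 0.0015, came next, followed by GIPC2. It lay farthest above in TRIM63, ETNPPL, SLC1A4 and GLDC, and in ROBO4, an endothelial guidance receptor, with 0.38, −2.28, 1.12 and −0.59. For ENPP3 and PLAU the 4-replicate means were 0.056 and 0.060, since the replicates cancelled out.

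Oxidative phosphorylation, the respiratory chain and ATP synthase, had a median of −0.013 over 77 measured members, and by replicate −0.20, −0.11, 0.23 and −0.077. In 35 of the 77 members replicate 3 was opposite to 3 others of one sign, beside 20.2% of all genes. With all replicates 5 members were positive and 3 negative at an unadjusted p under 0.05, beside 3.34% and 2.85% of all genes. Without replicate 3 the median was −0.12, or −0.18 on the arrays with CAN in Cy3 and −0.063 on those with CAN in Cy5, and 14 were negative at that p, beside 4.71% of all genes. Complex I held 10 of these. NDUFS6 of complex I had −0.70, −0.44, 0.041 and −0.20 in replicates 1 to 4 and NDUFA10 −0.29, −0.24, 0.030 and −0.28. Other complexes had members that went the opposite way. COX8A of complex IV was positive throughout, with 0.73, 0.71, 0.17 and 0.23, as was ATP5F1B, a catalytic subunit of ATP synthase, with 0.13, 0.45, 0.43 and 0.15.

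Proteins of the mitochondrial ribosome, which translates the subunits coded in mitochondrial DNA, had a median near 0 over 4 replicates, at −0.0049. By replicate it was −0.15, −0.11, 0.20 and −0.059 in replicates 1 to 4, and with all replicates 36 of 76 had a positive mean. At an unadjusted p under 0.05, 2 were positive and 5 negative, beside 3.34% and 2.85% of all genes. Without replicate 3, 3 were positive and 16 negative at that p, beside 6.51% and 4.71% of all genes. The median without replicate 3 was −0.10 on the arrays with CAN in Cy3 and −0.093 on those with CAN in Cy5. The 4 members of smallest p with 4 replicates were negative ones. Beside MRPS24, MRPL14 had −0.63, −0.64, −0.057 and −0.44, MRPS7 −0.57, −0.31, −0.032 and −0.21 and MRPL22 −0.35, −0.30, −0.031 and −0.11, and all were negative in each replicate. Import and carrier genes had a median of 0.030. Of these SLC25A30, a carrier of the inner membrane, was positive in each replicate, at 0.31 ± 0.11 (SD, n = 4), and VDAC1, a channel of the outer membrane, had 0.70, 0.63, −0.061 and 0.38. SLC25A6, an ADP and ATP carrier, was negative in each, at −0.41 ± 0.21 (SD, n = 4), as was TIMM17B, of the inner membrane translocase, at −0.37 ± 0.32 (SD, n = 4).

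**Figure D5:**
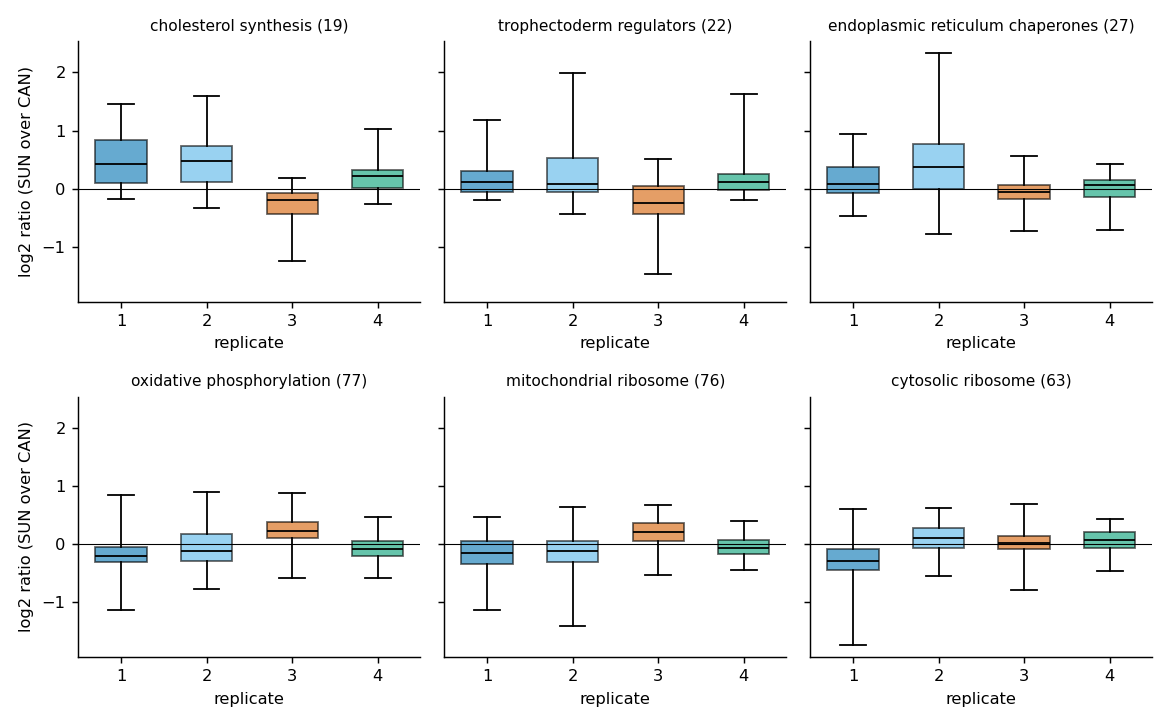
Boxes show the interquartile range of the members' log2 ratios (SUN over CAN, vertical axis), the line their median and the whiskers their full range, by replicate for 6 families with the number of measured members in brackets. The median of replicate 3 lies on the other side of 0 from replicates 1, 2 and 4 in cholesterol synthesis, trophectoderm regulators, endoplasmic reticulum chaperones, oxidative phosphorylation and the mitochondrial ribosome, and replicate 1 stands alone in the cytosolic ribosome.

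Citrate cycle and pyruvate genes had 19 of 25 positive, against 51% of all genes. At an unadjusted p under 0.05, 3 were positive and 0 negative, beside 3.34% and 2.85% of all genes. The median was 0.022, 0.20, 0.064 and 0.070 in replicates 1 to 4, so this family was among those of one sign in every replicate. PDHX, the binding protein of the pyruvate dehydrogenase complex, had 0.12, 0.22, 0.23 and 0.31. Its 2 probes differed in sign, at −0.039 and 0.48. The gene was 0.37 on the arrays with CAN in Cy3 and 0.066 on those with CAN in Cy5. IDH3B, an isocitrate dehydrogenase subunit, averaged 0.16 ± 0.11 (SD, n = 4), and PDK2, a kinase that turns pyruvate dehydrogenase off, 0.25 ± 0.20 (SD, n = 4). In glycolysis and glucose transport 17 of 23 were positive, and the median was 0.14, with replicate 3 at −0.11. ALDOC, an aldolase, averaged 0.16 ± 0.073 (SD, n = 4), LDHA, the lactate dehydrogenase, had 0.53, 2.22, −0.11 and 0.13 with replicate 2 far above the rest, and the glucose transporter SLC2A8 had −0.64, −0.90, 0.33 and −0.39.

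In the pentose phosphate pathway, which supplies NADPH and ribose, 3 of 8 measured members were negative at an unadjusted p under 0.05, beside 2.85% of all genes, and 0 positive. All 3 act in its non-oxidative branch, which exchanges sugars with glycolysis. TALDO1, the transaldolase, had −0.38 in replicate 1, −0.27 in replicate 2, −0.30 in replicate 3 and −0.15 in replicate 4. TKT, the transketolase, had −0.69, −0.69, −0.17 and −0.12, and RPE, the epimerase, −0.45, −0.33, 0.025 and −0.079. RPIA, the isomerase of the same branch, was positive in each replicate, at 0.17 ± 0.13 (SD, n = 4), and the median of the family was 0.046. Antioxidant genes had a median of −0.016 and 1 positive member of 36 at that p, beside 3.34% of all genes. This member was the peroxiredoxin PRDX2, with 0.35, 0.36, 0.28 and 0.23. Without replicate 3, 7 of 36 were positive at that p and 0 negative, beside 6.51% and 4.71% of all genes, and the median was −0.018 on the arrays with CAN in Cy3 and 0.066 on those with CAN in Cy5. Among them HMOX1, the haem oxygenase, had 0.87, 1.45, −0.45 and 0.56, SOD1, the cytosolic superoxide dismutase, 0.58, 0.86, −0.29 and 0.25, and GSTP1, a glutathione transferase, 0.20, 0.67, −0.14 and 0.30.

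Among the SUN replicates, cytosolic ribosomal proteins stood apart in replicate 1 only. Their median was −0.28, 0.11, 0.016 and 0.063 in replicates 1 to 4, with 12 of 63 positive in replicate 1 and 45 in replicate 2. In FLX over CAN, which carries the same CAN labels, the median was −0.42, −0.042, −0.16 and 0.20, so replicate 1 was lowest there too. With all SUN replicates 3 were positive and 3 negative at an unadjusted p under 0.05, beside 3.34% and 2.85% of all genes. RPLP1, of the ribosomal stalk, was negative in each replicate, at −0.57 ± 0.29 (SD, n = 4), while RPL6 averaged 0.36 ± 0.22 (SD, n = 4) and RPS16 0.21 ± 0.12 (SD, n = 4). Many ribosomal protein genes have processed copies, so a probe may read more than its own gene. Translation factors had a median of −0.019. EEF1B2, an elongation factor subunit, was even, with −0.36, −0.41, −0.25 and −0.27, and so was EIF4B, a helper of the initiation helicase, with −0.30, −0.33, −0.36 and −0.25. EIF4G2 averaged 0.23 ± 0.14 (SD, n = 4) and EIF1, which guards start codon choice, 0.30 ± 0.28 (SD, n = 4).

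Cytosolic aminoacyl-tRNA synthetases had the lowest median of the families without replicate 3, at −0.15. With all replicates it was −0.092, and by replicate −0.095, −0.34, 0.27 and −0.048, so replicates 2 and 3 were at opposite ends. AIMP2, a scaffold of the synthetase complex, averaged −0.20 ± 0.14 (SD, n = 4), and GARS1, the glycyl-tRNA synthetase, had −0.74, −1.002, 0.31 and −0.35. Ribosome biogenesis had a median of −0.0083. Of its 29 measured members 3 were positive and 1 negative at an unadjusted p under 0.05, beside 3.34% and 2.85% of all genes. NPM1, a nucleolar chaperone, was positive in each replicate, with 0.26, 0.87, 0.14 and 0.15, and BYSL, of small subunit assembly, negative in each, with −1.02, −0.45, −0.15 and −0.098.

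Chaperones of the endoplasmic reticulum, which fold secreted proteins, had 19 of 27 positive, and 4 of them at an unadjusted p under 0.05, beside 3.34% of all genes. The family median was 0.091, 0.38, −0.053 and 0.062 in replicates 1 to 4. CALR, calreticulin, had 0.57 in replicate 1, 1.22 in replicate 2, −0.061 in replicate 3 and 0.43 in replicate 4. PDIA6, a disulfide isomerase, had 0.70, 1.35, −0.020 and 0.39, and DNAJB11, a co-chaperone of BiP, 0.49, 0.77, 0.42 and 0.099. Replicate 2 was the highest in all 3 genes. Without replicate 3, 8 members were positive and 1 negative at that p, beside 6.51% and 4.71% of all genes, and the median was 0.25 on the arrays with CAN in Cy3 and 0.12 on those with CAN in Cy5. The unfolded protein response and degradation genes had a median of 0.098. With all replicates 1 of 27 was positive and 2 negative at that p, beside 3.34% and 2.85% of all genes. TRIB3, a target of the stress factor CHOP, averaged −0.26 ± 0.25 (SD, n = 4), and UBE2J1, a ubiquitin-conjugating enzyme of the same membrane, 0.18 ± 0.13 (SD, n = 4).

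In the secretory pathway 50 of 79 measured members were positive. At an unadjusted p under 0.05, 6 were positive and 4 negative, beside 3.34% and 2.85% of all genes. A positive sign in all 4 replicates was seen in 11 members, beside 6.55% of all genes. KDELR3, a receptor that returns residents to the endoplasmic reticulum, was even between replicates, with 0.26, 0.38, 0.40 and 0.44. LMAN1, a cargo receptor for glycoproteins, had 0.57, 0.64, 0.18 and 0.28, and TM9SF1, a protein with many membrane spans, 0.38, 0.42, 0.14 and 0.50. SEC61B, a subunit of the translocon, had −0.50, −0.67, 0.097 and −0.50, and without replicate 3 its adjusted p was 0.0854. Cytosolic chaperones had a median of 0.020. Of 39 measured members 5 were positive and 2 negative at an unadjusted p under 0.05, beside 3.34% and 2.85% of all genes. Among them STIP1, which links HSP70 to HSP90, had 0.21, 0.25, 0.53 and 0.12, CCT4 of the chaperonin ring 0.23, 0.33, 0.33 and 0.12, and HSF1, the heat shock factor, −0.29, −0.11, −0.051 and −0.14.

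Proteasome genes had 4 positive and 5 negative members of 41 at an unadjusted p under 0.05, beside 3.34% and 2.85% of all genes. Their median was 0.028. PSMD6, of the lid, had 0.42, 0.39, 0.15 and 0.27, PSMD2, of the base, averaged 0.22 ± 0.079 (SD, n = 4), and PSMC3, an ATPase of the base, −0.47 ± 0.41 (SD, n = 4). The lysosome and proton pump had 24 of 34 positive and medians of 0.10, 0.37, −0.14 and −0.058. ATP6V0E1, a pump subunit, was positive in each replicate, at 0.29 ± 0.14 (SD, n = 4).

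Nuclear families held members on both sides. In the spliceosome and hnRNP family 8 of 64 were positive and 2 negative at an unadjusted p under 0.05, beside 3.34% and 2.85% of all genes. SNRPE, a core protein of spliceosomal particles, had 0.082, 0.27, 0.33 and 0.18 in replicates 1 to 4, SF3B1, which binds the branch point, 0.13, 0.55, 0.10 and 0.17, and U2AF1, which binds the splice acceptor, −0.20, −0.13, −0.052 and −0.32. DNA replication had 20 of 44 positive and a median of −0.0049, and 9 members were negative in every replicate, beside 6.85% of all genes. MCM5, of the replicative helicase, averaged −0.52 ± 0.40 (SD, n = 4), whereas PCNA, the sliding clamp, averaged 0.30 ± 0.23 (SD, n = 4). Nucleotide synthesis had a median of 0.0013, with UMPS, the last enzyme of uridine synthesis, at 0.35 ± 0.22 (SD, n = 4) and DHODH, an earlier one, at −0.22 ± 0.17 (SD, n = 4). Cyclins and mitosis had a median of −0.030, with the spindle kinesin KIF11 at −0.18 ± 0.17 (SD, n = 4) and the cytokinesis protein ANLN at 0.13 ± 0.11 (SD, n = 4).

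Histone variants and histone chaperones had medians of 0.048, 0.091, 0.081 and 0.16 in replicates 1 to 4. Their 4-replicate median of 0.059 was −0.020 on the arrays with CAN in Cy3 and 0.15 on those with CAN in Cy5. HMGN2, a nucleosome-binding protein, had 0.31 in replicate 1, 0.39 in replicate 2, 0.42 in replicate 3 and 0.55 in replicate 4, all above 0.3, and NASP, a histone chaperone, averaged 0.35 ± 0.28 (SD, n = 4). Apoptosis genes had 0 of 25 members at an unadjusted p under 0.05, beside 6.18% of all genes, and a median of 0.028. Interferon-stimulated genes, which respond to interferon tau in the ruminant uterus, had 2 positive and 0 negative of 20 at that p, beside 3.34% and 2.85% of all genes. The 2 were RSAD2, with 0.076, 0.34, 0.066 and 0.34, and IFIT2, with 0.27, 0.058, 0.20 and 0.10. DNA methylation and imprinted genes had a median of 0.031, and TET2, which oxidises methylcytosine, was positive in each replicate, at 0.23 ± 0.15 (SD, n = 4). Growth factor signalling had a median of 0.0057, with MTOR, a kinase that senses nutrients, at 0.41 ± 0.50 (SD, n = 4), HBEGF, a ligand of the EGF receptor, at −0.28 ± 0.25 (SD, n = 4) and TGFBRAP1, a protein that binds TGF-beta receptors, at 0.17 ± 0.064 (SD, n = 4). Amino acid carriers had a median of −0.024, with SLC7A1, which carries basic amino acids, at 0.15 ± 0.094 (SD, n = 4).

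Markers of other cells that a uterine flush or the zona could carry were read in the same way. Medians with 4 replicates were −0.034 for 18 oocyte and maternal transcripts, 0.061 for 16 cumulus and granulosa genes, 0.025 for 17 blood cell genes, −0.025 for 18 uterine genes and −0.021 for 15 sperm genes. At an unadjusted p under 0.05 there were 2 positive cumulus and granulosa genes, beside 3.34% of all genes. These were SERPINE2, a protease inhibitor, at 0.36 ± 0.35 (SD, n = 4) and FSHR, the follicle-stimulating hormone receptor, at 0.22 ± 0.17 (SD, n = 4). SERPINE2 was 0.28 on the arrays with CAN in Cy3 and 0.43 on those with CAN in Cy5, and FSHR 0.43 and 0.0099. Sperm genes held TNP1 on the positive side and the protamines PRM1 and PRM2 on the negative, at −0.13 ± 0.066 (SD, n = 4) and −0.14 ± 0.11 (SD, n = 4), so the markers of that cell did not share a sign. PRM1 was −0.26 on the arrays with CAN in Cy3 and −0.0011 on those with CAN in Cy5, and PRM2 −0.15 and −0.14. LTF, the lactoferrin of uterine secretions, had 0.25 in replicate 1, −0.18 in replicate 2, −2.68 in replicate 3 and −0.26 in replicate 4, with replicate 3 far below the rest. X-linked genes that differ between the sexes had a median of 0.13, 0.68, −0.071 and −0.13 in replicates 1 to 4, with replicate 2 highest, and the 5 Y-linked genes measured 0.021, −0.013, −0.023 and 0.12. In FLX over CAN, which carries the same CAN labels, the X-linked medians were 0.12, 0.49, −0.15 and −0.21, with replicate 2 again highest. The Y-linked ones were −0.032, −0.082, −0.062 and −0.012. The part of embryo sex or of these cells in the family values was not tested.

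Finally, the SUN ratios were tested against the FLX ratios, both measured over CAN, to ask which values differed between the 2 diets. Such a difference can come from either diet. No gene passed a false discovery rate of 0.05 (limma), and 318 genes (2.09%) had an unadjusted p under 0.05, 176 positive (1.16%) and 142 negative (0.933%). Same-numbered replicates of the 2 comparisons deviated together, and with the replicate number as a block 853 genes reached that p and again 0 passed the false discovery rate. Among genes at that p outside the 24 ranked first, the largest positive differences were those of CRIP1, a LIM-domain protein, at 1.31, and of PAG12, at 0.98. CRIP1 averaged 0.51 ± 1.00 (SD, n = 4) in SUN and −0.80 ± 0.80 (SD, n = 4) in FLX. In SUN it had 0.14, 1.96, −0.35 and 0.29 in replicates 1 to 4, with replicate 2 far above the rest. PAG12 averaged 0.71 ± 0.56 (SD, n = 4) in SUN and −0.28 ± 0.61 (SD, n = 4) in FLX. ZNF219, a zinc finger protein, differed by 0.91, LHX2, a LIM homeobox factor, by 0.87, and CLN3, a lysosomal membrane protein, by 0.83. LHX2 had 0.26, 0.49, 0.34 and 0.35 in SUN replicates 1 to 4. The most negative under that limit were those of ZMYM1, a zinc finger protein, at −0.59, PDE12, a mitochondrial phosphodiesterase, at −0.58, DNAJC2, a ribosome-associated chaperone, at −0.58, LRP8, a lipoprotein receptor, at −0.54, and DENND5B, a Rab exchange factor, at −0.49. Of the cholesterol synthesis genes 1 of 19 had an unadjusted p under 0.05 for the difference, EBP, at 0.52. The family medians side by side were 0.23 in SUN and −0.070 in FLX, and both comparisons carry the same 4 CAN labels.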

How the data were processed

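Day 7.5 blastocysts of 3 diets were compared on 2-colour Agilent arrays, and 8 arrays of SUN with CAN and 8 of FLX with CAN were used. The deposited values were taken as log2 ratios, normalised by the authors, with array medians from −0.0139 to 0.00947. Background correction, scaling and centring are not given in the sources used here. Ratios were turned to diet over CAN from the dyes per the labels, and the mean of each dye pair gave 1 value per replicate. The platform annotation gave 21790 probes a single symbol, none several and 22004 none. Of the symbols, 1524 were updated through the gene table. No filter on intensity was possible, so every probe was kept, and array number limits the precision.

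Genes (means over probes) and probes were fitted with limma 3.58.1 in R 4.3.3 over all 8 replicates with 1 mean per diet, so the spread is shared between diets, and p-values were adjusted by the Benjamini-Hochberg method over all genes or probes. The fit was tested on simulated data. Dropping replicate 3 left 3 SUN and 4 FLX replicates. Same-numbered SUN and FLX replicates deviated from their group means together (r of 0.446, 0.588, 0.581 and 0.436 across genes, against −0.356 to 0.0118 for other pairs), so the numbers pair the samples. Other dye subsets, slides, scaling, a replicate block and leaving out each replicate were the alternatives.

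The members and all 51 lists (1539 genes measured of 1698) were chosen with earlier results of these data known. Named genes were the 12 highest and 12 lowest means at an unadjusted p under 0.05 with 1 sign in all replicates, both dye orientations and every probe; up to 4 members of smallest p per list; the 6 highest and 6 lowest without replicate 3 by the first rule; the 5 highest and 5 lowest of SUN minus FLX at that p outside the first 24; and the 5 farthest in replicate 3 on each side. Chosen after their values were seen were RASSF9, the 2 probes without a symbol, FADS1, FADS2, SCD, FASN, PTGS2, CDX2, GATA3, TFAP2A, PAG1, NANOG, POU5F1 and the cholesterol synthesis enzymes beyond that rule. In the ranking without replicate 3, the signs by dye orientation and by probe were those over all 4 replicates. No genome or sequence table was used here.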

Additional observations from a re-analysis of the deposited data

Results flagged for a closer look

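A single replicate lay far from the other 3, by Dixon's 95% criterion, in 14 of 250 groups of replicate values, namely 199 genes and 51 family medians. For unselected groups chance gives about 1 in 20. The genes were chosen by these same replicate values, so the count cannot be set against that rate. Replicate 3 was the distant one in CYP51A1 (−1.23), EBP (−0.30), GATA3 (−0.29), NDUFA10 (0.030), SPIC (0.48), ZMYM1 (0.47), the median of trophectoderm regulators (−0.24) and the median of growth factor signalling (−0.044). Replicate 2 was in CDH26 (−2.32), NPM1 (0.87), SF3B1 (0.55) and STMN1 (1.66), replicate 1 in RPLP1 (−0.997) and replicate 4 in CLDN3 (0.037). Values in brackets are the log2 ratio of that replicate, or its median over the family.

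In 7 of the 199 named genes every SUN replicate lay on one side of 0 and every FLX replicate on the other. The SUN minus FLX difference was 0.11 for ACACB, 0.34 for CLDN6, 0.83 for CLN3, −0.41 for DHODH, 0.61 for KDELR3, 0.87 for LHX2 and 0.21 for SLC7A1. None of these differences passed an adjusted p of 0.05 in limma, and both comparisons share the CAN diet. Over all 15216 genes the same held for 69 genes (0.453%), and LHX2 and CLN3 had been named for their SUN minus FLX difference. Most other named genes were chosen for one sign or a small p in SUN, which favours this pattern. The 7 of 199 therefore cannot be set against the share of all genes. In SUN, ACACB was −0.021 on the arrays with CAN in Cy3 and CLDN6 −0.12 on those with CAN in Cy5.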

How the results depend on the processing

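No gene passed a false discovery rate of 0.05 under any alternative run. Counts of genes at an unadjusted p under 0.05, 941 with all 4 replicates, were 2093 on the arrays with CAN in Cy3, 1973 on those with it in Cy5 and 588 to 1707 with 1 replicate left out. Left out were replicate 2 for the lowest of these and replicate 3 for the highest. Probes at that p, 2827 in all, numbered 6442 and 6110 in the same dye subsets and 1835 to 4657 with 1 replicate left out. Probes past the false discovery rate were 0, but 2 with CAN in Cy5 and 0 to 2 with 1 replicate left out. The SUN minus FLX count of 318 was 688 and 627 in the dye subsets, 261 to 794 with 1 SUN replicate left out, and 789 with a random and 853 with a fixed replicate block. The random replicate block gave 917 genes for SUN over CAN and changed no other call. One slide alone leaves no test of counts. Family medians moved past their replicate spread in 22 of 612 cases. With the Cy3 arrays of CAN alone they were −0.032 in apoptosis, −0.020 in histones and variants and −0.071 in oocyte and maternal transcripts. With the Cy5 arrays of CAN alone they were 0.069 in phospholipases and eicosanoids, −0.052 in basement membrane, 0.15 in histones and variants, 0.064 in blood cells and −0.085 in Y-linked. With slide 3 they were 0.0098 in trophoblast products, 0.062 in hypoblast, −0.089 in pentose phosphate and NADPH, −0.071 in nucleotide synthesis and 8.64e-05 in histones and variants. With slide 4 they were 0.087 in inner cell mass and epiblast, −0.091 in basement membrane, −0.010 in glycolysis and glucose transport, −0.046 in unfolded protein response and ERAD and 0.15 in histones and variants. With 1 replicate left out, they ranged from −0.019 to 0.064 for hypoblast, −0.073 to 0.062 for pentose phosphate and NADPH, −0.069 to 0.037 for DNA replication and 0.027 to 0.13 for histones and variants. Signs of named genes turned with the Cy3 arrays of CAN alone to −0.021 for ACACB, 0.012 for HAND1, 0.020 for LRP8, −0.0029 for MVK and −0.019 for PMVK. Signs of named genes turned with the Cy5 arrays of CAN alone to −0.14 for CDX2, −0.033 for CFL1, −0.12 for CLDN6, −0.017 for ENPP3, −0.29 for FASN, −0.23 for GATA3, 0.00097 for GGPS1, 0.071 for LSS, 0.0077 for NODAL, −0.27 for PLAU, −0.28 for POU5F1, 0.012 for SOX2 and 0.22 for TM7SF2. Signs of named genes turned with arrays centred and scaled to −0.11 for ENPP3, −0.0072 for MVK and −0.072 for PLAU. With 1 replicate left out, signs turned within ranges of −0.083 to 0.19 for CDX2, −0.043 to 0.15 for DHCR7, −0.71 to 1.10 for ENPP3, −1.28 to 0.060 for ETNPPL, −0.10 to 0.27 for FASN, −0.034 to 0.11 for GATA3, −0.71 to 1.43 for KRT19, −0.11 to 0.0064 for MVD, −0.059 to 0.060 for MVK, −0.16 to 0.013 for PAG1, −0.47 to 1.01 for PLAU, −0.0029 to 0.050 for PMVK, −0.12 to 0.13 for POU5F1, −0.11 to 1.01 for PTGS2, −0.83 to 0.30 for ROBO4, −0.031 to 0.80 for SCD, −0.071 to 0.52 for STAR, −0.23 to 1.61 for TKDP1 and −0.046 to 0.034 for TM7SF2. The causes were not tested. The spread of 4 replicate pools limits all of these values, and signal over background could not be read from ratios.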

Other observations

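The smallest p of all genes belonged to RASSF9, a Ras association domain protein, and it was carried by 1 dye orientation. Its log2 ratio was −0.41 in replicate 1, −0.35 in replicate 2, −0.37 in replicate 3 and −0.34 in replicate 4, a mean of −0.37 ± 0.031 (SD, n = 4) with an adjusted p of 0.319. On the arrays with CAN in Cy3 it was −0.014, and on those with CAN in Cy5 −0.72. FLX over CAN, which shares the CAN diet, averaged −0.28. RASSF9 was not among the 12 lowest genes ranked in the report, because its mean was nearer 0 than theirs. The last of those, GAB2, averaged −0.58.

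Without replicate 3, 2 probes with no gene symbol passed a false discovery rate of 0.05 (limma, adjusted p of 0.0222 for each). Probe EMBV3_27661 had 1.27, 1.56, −0.68 and 1.20 in replicates 1 to 4, and probe EMBV3_27273 had −0.86, −0.82, 0.11 and −0.80. In both, replicate 3 was the one of opposite sign, and with all 4 replicates the adjusted p was 0.774 (limma) for each. Replicate 3 was set aside for how its values differed from the others in these same data, so the 2 probes are a description.

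Dye subsets were added after the data were seen for the medians of families without replicate 3. Of 102 such medians, 30 moved by more than their replicate spread. Oxidative phosphorylation had −0.18 with CAN in Cy3 and −0.063 with CAN in Cy5, nuclear lipid receptors −0.00050 and 0.12, growth factor signalling −0.026 and 0.050, and histones and variants −0.046 and 0.14. The last 3 turned sign between orientations. Cholesterol synthesis had 15 of 19 members positive with CAN in Cy3 and 18 of 19 with CAN in Cy5.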
